A study of Homo sapiens with 6 samples.

Results

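The H/ACA small nucleolar RNAs (snoRNAs) encoded inside other genes were followed in cells with and without the 3′ exonuclease TOE1. Members were chosen as the rows of the authors' deposited table whose gene name starts with SNORA, leaving out U17 (SNORA73), which gave 63 of the 142 RNAs listed. Of these, 26 had at least 200 reads summed over all libraries and carried 88.5% of the reads of the 63, so most weight was given to them. The last RNA inside this limit was SNORA26 with 234 reads, and the first outside was SNORA84 with 196 reads. Read totals per snoRNA ran from 20 to 5585 with a median of 128.

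All 6 libraries came from HEK 293T-REx TOE1-degron cells, a human embryonic kidney line in which TOE1 carries a tag that lets auxin trigger its destruction. The 3 TOE1-depleted libraries came from cells treated for 8 hours with 600 µM indole-3-acetic acid, an auxin, and the 3 TOE1-present libraries from the same line with TOE1 kept. What the TOE1-present cells received in place of auxin, and whether the line is 1 clone, is not given in the sources used here. Every culture was fed 0.2 mM ethynyl uridine for 8 hours so that newly made RNA could be captured, and gel-selected RNA of 100 to 500 nt received an adaptor at its 3′ end. Per the labels, 4 libraries had adaptor AG10, the 3 with TOE1 and replicate 1 without it, while replicates 2 and 3 without TOE1 had AG11. Depletion and adaptor were thus partly confounded. Library totals were 34581 to 57078 reads with TOE1 and 32813 to 75353 without it, and the mRNA of TOE1 itself was not analysed here. Nothing in the labels says whether replicates were separate cultures. The p-values therefore reflect only how far these libraries scatter, and that scatter may be technical.

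H/ACA snoRNAs guide the conversion of chosen uridines to pseudouridine in ribosomal and spliceosomal RNA, as part of a particle with the enzyme dyskerin. Each folds into a pair of hairpins joined by a hinge and ends in a short tail with the ACA box, a triplet close to the 3′ end that the particle's proteins need. In human cells most are cut out of the spliced introns of host genes and trimmed back by exonucleases, and the mature 3′ end usually lies 3 nt after the ACA box. Trimming intermediates can receive untemplated A bases, which other nucleases remove. TOE1 is best known for trimming small nuclear RNAs, and the question behind the libraries is which further RNAs are its substrates.

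The label of these snoRNAs was checked against the GENCODE 44 annotation of hg38. Of the 63, 58 lay within an intron of the host gene's canonical transcript. A further 3 overlapped an exon of a noncoding host (SNORA50C in SNHG25, SNORA71E in SNHG11 and SNORA9 in SNHG15), and for SNORA80C and SNORA10B no host was found. Ribosomal protein genes hosted 13 of them, among these the most-read, SNORA7A in RPL32, and these 13 held 13068 reads. The 13 within introns of noncoding hosts, mainly the SNHG genes whose spliced transcripts are known chiefly as snoRNA carriers, held 7231 reads. The 32 in introns of other protein-coding genes held 5000 reads. Where introns of a protein-coding and a noncoding gene both held the snoRNA, the protein-coding gene was taken as host. SNORA74A and SNORA74D, in MATR3 and SNHG4, are examples. Gene models were 122 to 249 nt long with a median of 134 nt.

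The 3′ ends below carry the finding on where these RNAs stopped. Each line gives the last 20 annotated bases and the next 10 genomic bases (30 for SNORA21B), 5′ to 3′ on the strand of the gene, from the hg38 reference. Capitals mark the box triplet, and position 0 is the last annotated base.
SNORA7A: gaagacactctgcgACAgtgttcagtccct
SNORA10: ttcctaggagtgcgACAatttttgggttgg
SNORA64: ccttgaggggtgcaACAggccctgggcggt
SNORA70: aagggaccttggagACAggcctttcaggtg
SNORA3A: tcaccaggttagagACAtgcttcacattca
SNORA44: cactcagctttcctATAatgtttcaggacc
SNORA61: tgggctagtttcagACAggtttcagagatg
SNORA48: ttcatgccttggacACAtaggtttccttta
SNORA71D: aactctggagctttctcACAcctccttctc
SNORA71A: aaccctgaagctttcacACAactcctgttg
SNORA51: ttgtgaatgggggaACAtagaattgaggaa
SNORA3B: tgcccagatcagaaACAtacataccctgcc
SNORA77B: agctccctggggACACAggtgcttcctggg
SNORA67: ttccttggctgcccACAtggatgcctaagt
SNORA21B: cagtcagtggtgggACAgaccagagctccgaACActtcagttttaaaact
The genes of the 3 snoRNAs that rose in abundance, described further on, are SNORA3A at chr11:8684227-8684356 on the plus strand, SNORA44 at chr1:28580381-28580512 on the minus strand and SNORA70 at chrX:154400281-154400415 on the plus strand. SNORA7A lies at chr3:12840312-12840450 on the minus strand and SNORA48 at chr17:7574713-7574847 on the plus strand. All 5 are intronic.

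The box was searched on the strand of the gene as the letters ACA within the last 12 annotated bases, and was present in 61 of the 63 snoRNAs. The exceptions were SNORA44, which has ATA at the same place, and SNORA74D, which has ATA at its annotated end. Among the 19 C/D snoRNAs of the table, which belong to the other large snoRNA class and end differently, 15.8% had an ACA there. Over the annotation, an ACA ending exactly 3 nt before the annotated end was found in 66.3% of the 208 genes named SNORA outside U17 and in 1.59% of the 314 genes named SNORD.

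In TOE1-present cells the median 3′ end of most of these snoRNAs lay 3 nt past the box. Single reads spread around it. Among the 26 with at least 200 reads, the mean end minus the median end ran from −0.165 to 2.88 nt. The middle value was 1.02 nt, all computed from the authors' deposited table. The median 3′ end in the authors' deposited table was a whole position for 58 of the 63, and in 44 of those (75.9%) an ACA stood exactly 3 nt upstream of it. An ACA 4 nt upstream was found in 8 and 5 nt upstream in 7, and at each other distance from 0 to 7 nt in 3 or fewer. Counting ATA as well, and any ACA in place of the last alone, 24 of the 26 snoRNAs with at least 200 reads ended 3 nt past a box, against 22 of the 37 with fewer. The exceptions among the 26 were SNORA51 and SNORA3B, each with its median end at 1 in place of 0 in the authors' deposited table. Measured from the last ACA, SNORA77B was a further exception at 1 nt in the authors' deposited table. On that measure, with ATA where ACA was lacking, 42 of the 63 ended 3 nt past the box.

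Since position 0 is itself an annotated end, snoRNAs with the box elsewhere than 3 nt before it show how ends lay when both differ. There were 14, with the box taken as the last ACA, or as ATA where ACA was lacking. SNORA71A, SNORA71C, SNORA71D, SNORA71E and SNORA60 are annotated to stop right at the last base of ACA, and in the authors' deposited table each had its median end at position 3. SNORA47, annotated to end 4 nt past its box, had a median end of −1 in the authors' deposited table. SNORA74A and SNORA74B, annotated to end 2 nt past it, had a median end of 1 in that deposited table from the authors. In these 8 of the 14 the median end lay 3 nt past the box and away from the annotated end. The other 6 did not end there: in the authors' deposited table the distance past the box was 3.5 nt in SNORA74D, 4 nt in SNORA53, 4.5 nt in SNORA63, 1.5 nt in SNORA23, and 1 nt in SNORA11B and in the SNORA17B row with 52 reads. Of the 6, SNORA11B had its median at the annotated end, which is 3 nt past an upstream ACA that overlaps the last one. SNORA23 has such an overlapping ACA too, 3 nt before its annotated end. Reads of the 6 ran from 20 to 193. SNORA77B holds an overlapping pair of ACA triplets, and its median end of −2 in the authors' deposited table lay 3 nt past the upstream one.

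A few snoRNAs stopped further out. SNORA21B, in an intron of RPL23, had its median end at 17 in the authors' deposited table, which is 3 nt past the second ACA printed above and 20 nt past the one in the annotated gene. SNORA67, SNORA80D, SNORA11D/E (1 row for both gene copies) and SNORA2A had median ends 5 nt past the box in the authors' deposited table. These rest on fewer reads, between 25 for SNORA2A and 190 for SNORA80D. Whether the deposited median end counts untemplated bases is not stated in the header. Reads in the A-tail class named A1+, described further on, were frequent here. They were 50% in SNORA67, 30.7% in SNORA80D, 63.3% in SNORA11D/E and 70% in SNORA2A in the authors' deposited table. Their part in these ends was not tested.

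**Figure D1:**
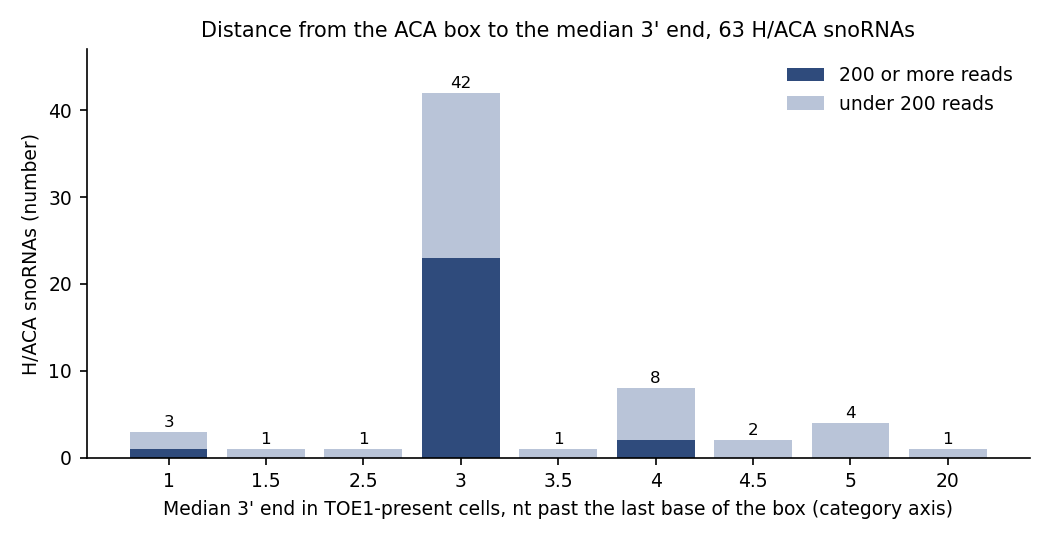
Number of H/ACA snoRNAs (vertical axis) by distance in nt from the box to the median 3′ end in TOE1-present cells (horizontal axis, categories). Distances run from the last base of the box, which is the last ACA, or ATA in the 2 snoRNAs without ACA. Dark bars are the 26 snoRNAs with at least 200 reads and pale bars the 37 with fewer; 42 of the 63 stand at 3 nt, and SNORA21B alone at 20 nt.

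The genome-templated part of the 3′ end did not move past the test in any of the 63 snoRNAs after TOE1 depletion. The difference between conditions in the authors' deposited table was below 0, that is upstream or shorter, in 45 and above 0 in 18, with a median of −0.212 nt against −0.106 nt over all 142 RNAs. With the deposited p-values adjusted by Benjamini-Hochberg over the 139 RNAs that had one, 0 of the 63 passed 0.05, against 2.16% of all RNAs. At an unadjusted p under 0.05 there were 3 shorter and 1 longer among the 63, and 10 shorter and 8 longer among all 139. Among the 26 with at least 200 reads the median was −0.157 nt and the range −0.814 to 0.508 nt in the authors' deposited table, with 19 below 0 and 7 above.

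SNORA7A had the most reads of the 63. Its templated end differed by −0.32 nt in the authors' deposited table, with a 95% interval of −0.64 to −0.01 nt and an adjusted p of 0.358. For SNORA70, in RPL10, that end differed by 0.02 nt with an interval of −0.25 to 0.28 nt in the authors' deposited table. The interval of SNORA7A is the only one of the 26 that does not hold 0, and that of SNORA70 is the narrowest. The lowest values belonged to SNORA51 in NOP56 (−0.81 nt, interval −1.68 to 0.05), SNORA65 in RPL12 (−0.71 nt, −1.86 to 0.43) and SNORA64 in RPS2 (−0.58 nt, −1.17 to 0.01) in the authors' deposited table. The highest were SNORA80A in URB1 (0.51 nt, −0.81 to 1.83), SNORA7B (0.46 nt, −0.31 to 1.23) and SNORA10 in RPS2 (0.19 nt, −0.27 to 0.66), again from the authors' deposited table. For these 6 the adjusted p-values were between 0.368 and 0.729. Intervals of 25 of the 26 held 0, with half-widths from 0.267 to 1.37 nt. The intervals are not adjusted for the number of RNAs, so the adjusted test could also miss shifts larger than these half-widths.

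SNORA53, with 55 reads and singled out after its values were seen, came nearest to the threshold. Its templated end differed by −1.33 nt in the authors' deposited table, and its 95% interval was −1.80 to −0.85 nt (adjusted p = 0.0514). With limma's moderated variance the adjusted p was 0.0389, so this call depends on the test. It was then the 1 call among the 63, against 2.88% of all RNAs.

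The total end, which counts the untemplated tail too, was also shorter in most. It was below 0 in 44 of the 63 and above in 19 in the authors' deposited table, with a median of −0.335 nt against −0.163 nt over all RNAs. Again 0 of the 63 passed the adjusted test, against 2.16% of all RNAs, and at an unadjusted p under 0.05 there were 5 shorter and 0 longer, beside 8 shorter and 3 longer among all 139. Of the 26 with at least 200 reads, 22 were below 0 with a median of −0.423 nt and a range of −0.939 to 0.514 nt in the authors' deposited table.

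SNORA50C, which overlaps an exon of SNHG25, had the lowest adjusted p of the 63 for the total end, 0.288. It differed by −0.88 nt in the authors' deposited table with an interval of −1.41 to −0.34 nt. SNORA7A differed by −0.60 nt (interval −1.14 to −0.07 nt, adjusted p = 0.531) in the same deposited table of the authors. SNORA7B, nearly identical to SNORA7A in sequence, had the lowest value, −0.94 nt in the authors' deposited table, but an interval of −4.04 to 2.16 nt. SNORA80B in ODC1 followed with −0.89 nt (−2.18 to 0.40) in the authors' deposited table. At the other end stood SNORA80A with 0.51 nt (−1.05 to 2.08), SNORA70 with 0.07 nt (−0.69 to 0.83) and SNORA26 in DANCR with 0.05 nt (−1.41 to 1.51) in the authors' deposited table. With the deposited Kolmogorov-Smirnov p on pooled reads, which treats reads as replicates, 2 of the 63 passed, SNORA7A and SNORA7B, against 17% of all RNAs.

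**Figure D2:**
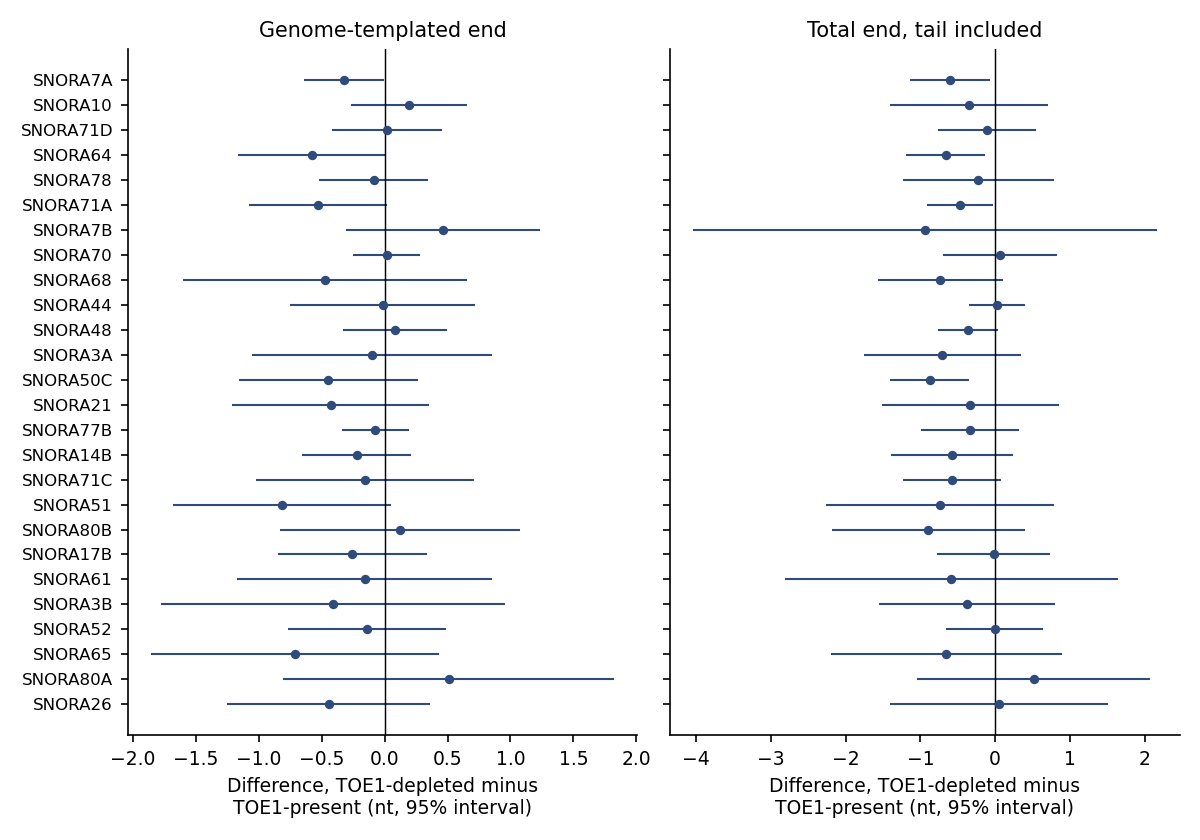
Difference in 3′ end position in nt (horizontal axes, TOE1-depleted minus TOE1-present, authors' deposited values) for the 26 H/ACA snoRNAs with at least 200 reads, templated end on the left and total end with tail on the right; bars are 95% intervals computed from each difference and its p-value. Points lie between −0.814 and 0.508 nt on the left and between −0.939 and 0.514 nt on the right, and 25 and 22 of the 26 intervals hold 0.

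A was the most common untemplated base. In TOE1-present cells the 26 snoRNAs with at least 200 reads carried a median of 0.445 A, 0.228 G, 0.118 C and 0.114 U tail bases per read in the authors' deposited table. The class of reads the table names A1+ had a median share of 19.02% in the authors' deposited table. It ran from 6.91% in SNORA50C to 34.9% in SNORA7A in the authors' deposited table. In all 63 this class equalled the A1 class plus the A2+ class, to within 0.001 percentage points, so it was read as 1 or more A. The header does not define it, and it does not hold every read with a tail A. SNORA37, picked after its values were seen, had 0.3 A bases per read with TOE1 and an A1+ share of 0% in the authors' deposited table.

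After TOE1 depletion the A1+ share was lower in 26 of these 26. Its median was then 9.31% and its range 1.24% to 22.02% in the authors' deposited table. None passed the adjusted test: 0 of the 59 snoRNAs with a deposited p, against 0% of all 128 RNAs with one. At an unadjusted p under 0.05 there were 14 lower and 1 higher among the 59, beside 24 lower and 3 higher among all 128. Lower shares were not limited to these snoRNAs. Among the 35 other RNAs with at least 200 reads the authors' deposited table had 28 lower and 5 higher, with medians of 18.3% and 11.2%. Tail values were deposited per condition only, so the part of the adaptor in this difference was not tested.

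SNORA61, in an intron of SNHG12, had the largest difference among the 26, from 26.7% to 2.60% in the authors' deposited table, with an interval of −45.7 to −2.41 percentage points. SNORA48 in EIF4A1 went from 30.8% to 13.5% (−28.4 to −6.26 points) and SNORA3A in RPL27A from 20.9% to 5.01% (−27.2 to −4.55 points) in the authors' deposited table. SNORA7A, with the most reads, went from 34.9% to 22.02% (−20.7 to −5.03 points) in the authors' deposited table. Each of these 4 had an adjusted p of 0.214. The smallest differences were in SNORA71C, from 11.7% to 10.2%, SNORA50C, from 6.91% to 3.81%, and SNORA51, from 13.1% to 8.03%, in the authors' deposited table.

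**Figure D3:**
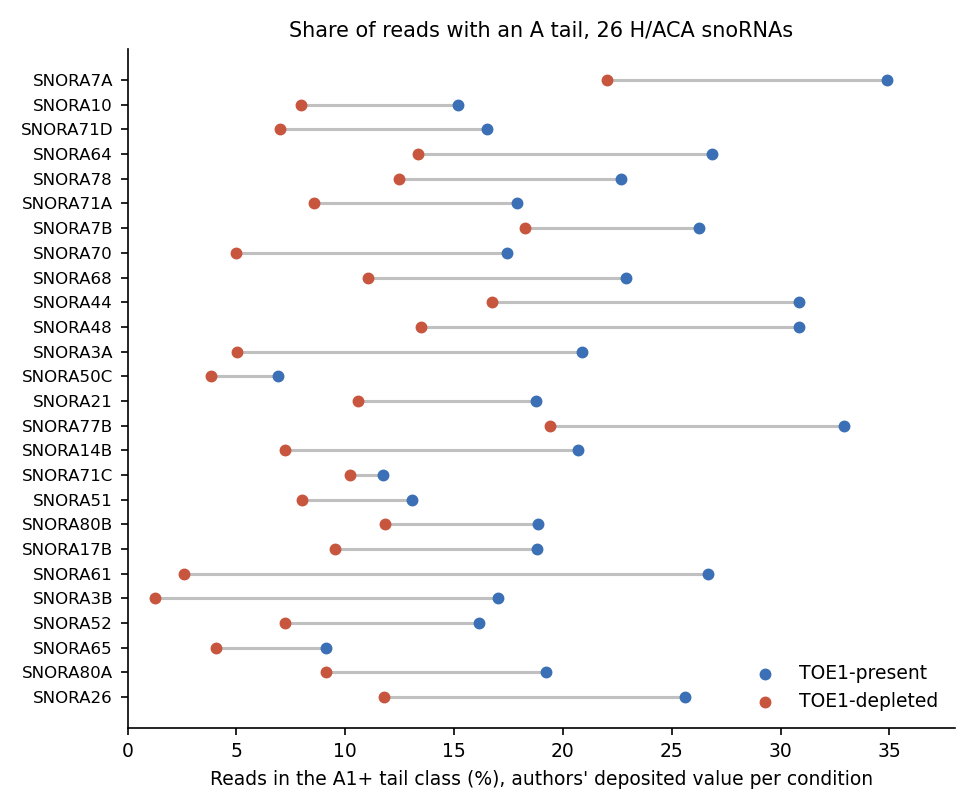
Share of reads in percent in the A1+ tail class (horizontal axis) for the 26 H/ACA snoRNAs with at least 200 reads, with 1 authors' deposited value per condition and a grey line joining both. The TOE1-depleted point lies to the left in 26 of 26; medians were 19.02% and 9.31%.

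An A can be recognised as untemplated only where the genome does not continue with A. The genomic base after the median end was A in 2 of the 26 snoRNAs, SNORA50C and SNORA51, whose A1+ shares with TOE1 were 6.91% and 13.1% in the authors' deposited table. In the other 24 the next base was C, G or T, and the A1+ share ran from 9.12% to 34.9% with a median of 19.96%, then 9.87% after depletion, in the authors' deposited table. All 24 were lower after depletion, as were both followed by A. Over all read numbers, 41 of the 48 followed by C, G or T and 4 of the 10 followed by A were lower.

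Longer A tails gave calls in a single snoRNA, SNORA48, which sits in the gene of the translation factor EIF4A1. In the authors' deposited table, the share of SNORA48 reads in the A2+ class, read as 2 or more A, fell from 17.7% to 7.71% (interval −12.7 to −7.36 points, adjusted p = 0.0435). For 3 or more A it fell from 16.8% to 5.10% (interval −14.1 to −9.43 points, adjusted p = 0.0108) in the same deposited table of the authors. SNORA48 was the only RNA called in either class, which makes 1.08% and 1.37% of all RNAs tested in them. Reads with 3 or more A are also among those with 2 or more, so the calls are not separate. For A bases per read the adjusted p of SNORA48 was 0.334. The other snoRNAs with high shares of 2 or more A were SNORA7B, from 18.9% to 9.96%, SNORA44, from 18.6% to 9.61%, and SNORA7A, from 18.2% to 13.2%, in the authors' deposited table. Their adjusted p-values were 0.308, 0.320 and 0.207. SNORA67, hosted in another intron of EIF4A1 and with 169 reads, had 30.6% with TOE1 and 34.6% without it, per the authors' deposited table, and an adjusted p of 0.851.

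U tails were scarce. SNORA67 rose from 0 to 0.142 U bases per read in the authors' deposited table (interval 0.109 to 0.176, adjusted p = 0.0387). It was the only RNA called, which makes 0.787% of all RNAs tested for U bases. The call rests on 20, 15 and 15 reads with TOE1 and 42, 27 and 50 reads without it. It was lost with limma's moderated variance (adjusted p = 0.230). No snoRNA passed for A, C or G bases per read, for a single A or for any class of U or mixed A and U tails; the share called was 0% of all RNAs in each of these.

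Reads on H/ACA snoRNAs made up a larger part of the TOE1-depleted libraries. The 63 held 6.01%, 7.81% and 7.10% of all reads in TOE1-present replicates 1 to 3 and 8.15%, 11.8% and 12.6% in TOE1-depleted replicates 1 to 3. The groups did not overlap, and the lowest TOE1-depleted value was that of the only AG10 library among them. Means were 6.97% ± 0.910 and 10.8% ± 2.36 (SD, n = 3 each), a difference of 3.87 points (2-sided exact permutation test p = 0.1, the smallest that 3 against 3 libraries can give). Reads of 7SL RNA, the RNA of the signal recognition particle, moved the other way, from 32.0% to 43.2% of a library with TOE1 to 19.9% to 30.4% without it. Replicate 1 had the lowest snoRNA share in both conditions, and some rows differed between it and the other replicates. AC024051.4 held 5602, 261 and 0 reads in replicates 1 to 3 with TOE1 and 15817, 0 and 0 without it. AL162581.1 held 3533, 0 and 0, then 6348, 0 and 0. The RMRP row with more reads held 0, 1985 and 2397, then 0, 2291 and 5460. The part of these rows in the snoRNA share was not tested. AC024051.4, AL162581.1 and the 7SL, U2, RMRP and 7SK families were then left out. Of the remainder the snoRNAs held 21.5% to 21.9% with TOE1 and 26.8% to 34.3% without. That remainder still held RPPH1, with 22318 reads over all libraries. With the TMM scaling described below, the log2 change of RPPH1 was −1.22 ± 0.52 (SE; edgeR adjusted p = 0.196), and its part in this step was not tested. On library totals the median log2 change was 0.63 over all RNAs tested and 0.67 in the 45 of these snoRNAs tested, so higher values were not limited to them. Fewer cells making an RNA and less RNA per cell cannot be told apart in bulk libraries.

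Abundance per snoRNA was tested with edgeR on counts scaled by TMM, which sets the bulk of RNAs level. Of the 63, 45 had enough reads to be tested, and 3 of them passed as higher: SNORA3A, SNORA44 and SNORA70. This is 3 of 45, against 7.92% of all 101 RNAs tested in either direction and 4.95% called higher. None fell. At an unadjusted p under 0.05 there were 9 of the 45, all higher, beside 28 of all 101, of which 16 were higher. The median log2 change of the 45 was 0.13, against 0.08 over all RNAs tested, and 32 of the 45 were above 0.

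SNORA3A sits in an intron of RPL27A, a gene for a protein of the large ribosomal subunit. Its TMM-normalised CPM (counts scaled to a common library size) were 1749, 1496 and 1431 in TOE1-present replicates 1 to 3 and 2528, 3676 and 2805 in TOE1-depleted replicates 1 to 3. The 3 TOE1-depleted libraries were all higher, and replicate 2 the highest. The log2 change was 0.93 ± 0.17 (SE; edgeR adjusted p = 0.0348). SNORA3B, in another intron of the same host and chosen for that, went from 712 ± 210 to 1026 ± 132 CPM (SD, n = 3 each; log2 change 0.53, edgeR adjusted p = 0.197), with groups that overlapped.

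SNORA44, the snoRNA with ATA in place of ACA, sits in SNHG12. It had 2127, 1994 and 2079 CPM with TOE1 and 3439, 2612 and 3150.0 CPM without it. The groups did not overlap, and the log2 change was 0.57 ± 0.12 (SE; edgeR adjusted p = 0.0348). SNORA70 in RPL10 had 2079, 2430.2 and 2284 CPM with TOE1 and 3278, 3144 and 4171 CPM without it. Its groups did not overlap either, and its log2 change was 0.65 ± 0.14 (SE; edgeR adjusted p = 0.0348).

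The calls changed with the model, while the 3 log2 changes stayed above 0 in every alternative run. With the adaptor as a term the log2 changes were 0.69, 0.73 and 0.54 for SNORA3A, SNORA44 and SNORA70. In that fit the AG11 libraries set the adaptor term, so the change rests on TOE1-depleted replicate 1 against the TOE1-present libraries. The AG10 libraries alone make the same contrast, with that 1 library assumed to vary like the others, and gave 0.66, 0.70 and 0.51. These 2 fits are therefore not separate estimates, and no calls are counted for them. Leaving out any TOE1-present replicate or TOE1-depleted replicate 3 left 0 calls, leaving out TOE1-depleted replicate 1 left SNORA3A, and leaving out replicate 2 left SNORA44. With 1 library fewer the log2 changes were 0.76 to 1.02 for SNORA3A, 0.47 to 0.66 for SNORA44 and 0.51 to 0.71 for SNORA70. DESeq2 called SNORA70 and SNORA3A among 17.8% of all RNAs. With the replicate number as a block the calls were these 3 and SNORA61 (edgeR adjusted p = 0.0203), again with 17.8% of all RNAs called.

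Scaling set the general level. On library totals alone the median over all RNAs tested moved from 0.08 to 0.63 and that of the 45 snoRNAs from 0.13 to 0.67, 44 of the 45 were above 0, and 18 were called higher, against 30.7% of all RNAs called. The snoRNA median lay above that of all RNAs under both scalings.

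**Figure D4:**
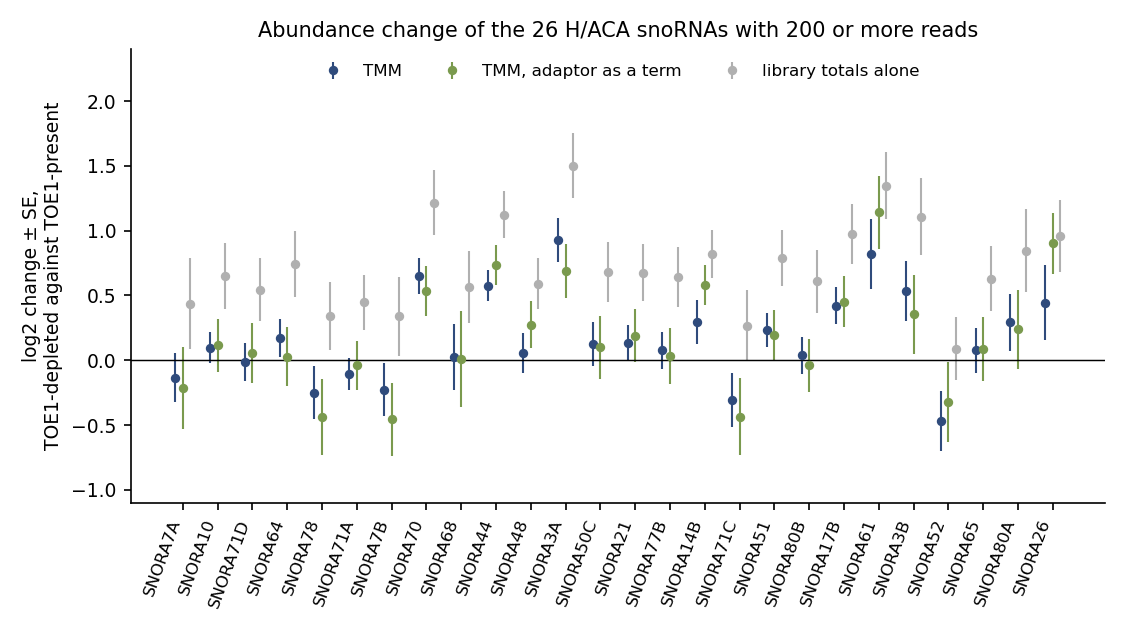
Change in abundance on the log2 scale (vertical axis, TOE1-depleted against TOE1-present, bars are SE) for the 26 H/ACA snoRNAs with at least 200 reads, from edgeR with TMM, with TMM and the adaptor as a term, and with library totals alone. SNORA3A has the highest TMM value, 0.93, and the library-total points lie above the TMM points in all 26. In the adaptor fit the change rests on TOE1-depleted replicate 1 against the TOE1-present libraries.

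Of the 10 most-read snoRNAs, the 8 besides SNORA70 and SNORA44 did not pass. SNORA7A had 18288.5, 18912 and 23755 CPM with TOE1 and 17534, 19299 and 18654 CPM without it. On the log2 scale this was −0.14 ± 0.19 (SE; edgeR adjusted p = 0.785). The groups overlapped, with TOE1-present replicate 3 the highest of the 6. SNORA10 and SNORA64, both in RPS2, had log2 changes of 0.10 and 0.17. The TMM log2 changes of SNORA71D, SNORA71A and SNORA7B were −0.01, −0.11 and −0.23. The lowest among the 26 were SNORA52 in RPLP2 at −0.47 (edgeR adjusted p = 0.261), SNORA71C at −0.31 (0.430) and SNORA78 in SNHG9 at −0.25 (0.518), and these 6 and SNORA7A were all above 0 on library totals. The groups did not overlap, with TOE1-depleted higher, in 10 of the 45 (22.2%), against 16.8% of all RNAs tested.

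Some hosts carry several of these snoRNAs, which are spliced out of the same transcript, so such snoRNAs share a source. There were 11 hosts with 2 or 3, holding 25 snoRNAs; the hosts described here were picked after their values were seen. For each of the 3 in SNHG12, every TOE1-depleted library lay above every TOE1-present library. SNORA61 had 756, 561 and 477 CPM with TOE1 and 1352, 1064 and 824 CPM without it, or 0.82 ± 0.27 on the log2 scale (SE; edgeR adjusted p = 0.106). SNORA16A had 213, 312 and 102 CPM and then 529, 411 and 332 CPM, or 0.99 ± 0.40 on the log2 scale (SE; edgeR adjusted p = 0.170). With the adaptor as a term, which leaves TOE1-depleted replicate 1 alone to set the change, the 3 in SNHG12 had log2 changes of 0.73, 1.14 and 1.31. In SNHG17, the log2 changes of SNORA71D, SNORA71A and SNORA71C were −0.01, −0.11 and −0.31, all with overlapping groups.

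**Figure D5:**
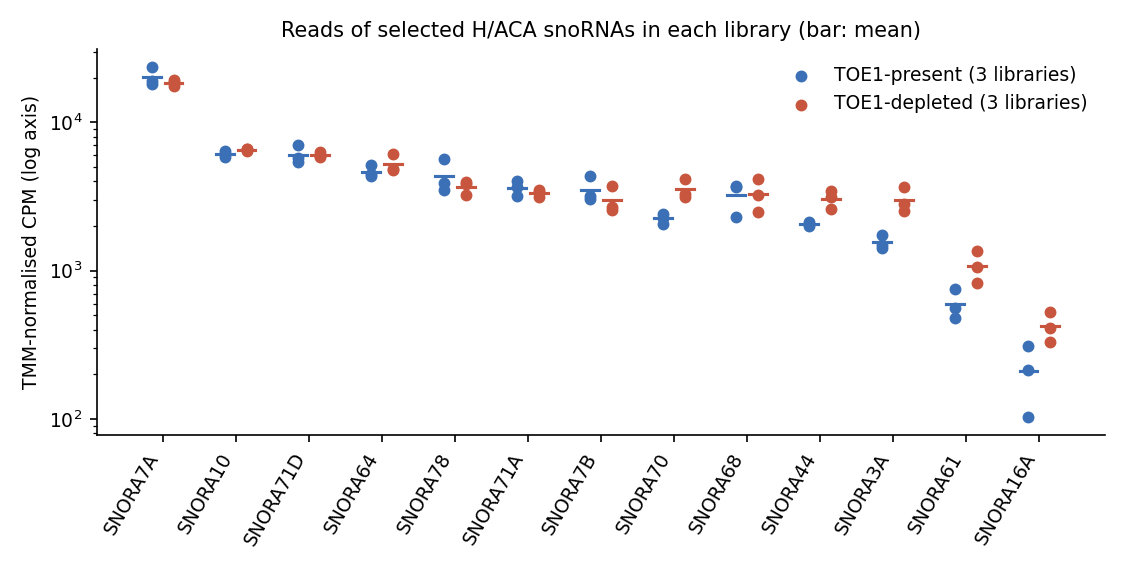
TMM-normalised CPM (vertical axis, log scale) of the 10 most-read H/ACA snoRNAs, SNORA3A, and the 2 others in SNHG12, 1 point per library and a bar at the mean of 3. Without TOE1 all points of SNORA70, SNORA44, SNORA3A, SNORA61 and SNORA16A lie above those with TOE1; for SNORA7A the groups overlap.

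By type of host, 2 of the 11 tested snoRNAs of ribosomal protein genes passed the adjusted abundance test as higher. So did 1 of the 14 of noncoding hosts and 0 of the 19 of other protein-coding genes, against 4.95% of all 101 RNAs tested. Log2 changes were above 0 in 8 of the 11, 8 of the 14 and 15 of the 19. The median log2 changes of the 3 types were 0.10, 0.09 and 0.23. The median difference of the templated end was −0.248, −0.192 and −0.183 nt in these 3 types in the authors' deposited table. For the A1+ share it was −10.7, −9.30 and −10.1 points in the authors' deposited table. No test was made between the types.

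The other box RNAs of the table give the setting. For the templated end 0 of 2 U17 rows, 0 of 9 H/ACA scaRNAs, which guide pseudouridylation in Cajal bodies, and 0 of 19 C/D snoRNAs passed, with medians of −0.221, −0.055 and −0.200 nt in the authors' deposited table. The total end had a median of 0.165 nt in the 9 H/ACA scaRNAs, with 6 above 0 and 3 below, in the authors' deposited table. A1+ shares had medians of 36.1% and then 14.2% in the 9 H/ACA scaRNAs, with 4 lower and 4 higher, and 13.9% and then 6.60% in the 19 C/D snoRNAs, with 11 lower and 7 higher, in the authors' deposited table. In the 2 U17 rows they were 21.8% and then 7.69%, both lower, and in the 6 scaRNAs with C/D or mixed boxes 28.1% and then 12.003%, with 5 lower and 0 higher, in the authors' deposited table. The difference between these lists and the 63 snoRNAs was not tested.

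Near-identical copies limit some of these values. SNORA7A and SNORA7B are 98.6% identical over their gene models and share the 30 bases printed for SNORA7A, and SNORA10 and SNORA10B are 98.5% identical, so reads could be split between them. The SNORA80 copies are 75.5% to 91.9% identical and the SNORA71 copies 76.3% to 86.6%. SNORA17B is listed under 2 overlapping gene models with 310 and 52 reads, which were kept as 2 rows.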

How the data were processed

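The authors deposited 1 table of 142 RNAs made from the 6 libraries. Per the submitters' processing notes, STAR 2.7.8a and the build hg38 were used; how reads of gene copies were assigned, and whether counting used strand, is not given in the sources used here. It holds raw read counts per RNA and library, which the authors deposited without normalization, and, per condition only, 3′ end positions in a window of −10 to 50 nt. Shares of reads by tail type are deposited as a fraction per condition and printed here as percent. A deposited p-value of the authors goes with each difference. Since the header leaves TE and GE undefined, they were read from the values: subtracting GE from TE gave the sum of the tail base differences in 142 of 142 rows (tolerance 1e-06 nt). GE was thus taken as the genome-templated end and TE as that end with its tail.

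The deposited p-values were adjusted by Benjamini-Hochberg over all RNAs that had one (threshold 0.05), and 95% intervals were recovered from the difference and its p-value. Each end or tail measure was adjusted on its own, with no adjustment over the measures. Counts were tested with edgeR 4.0.16 (quasi-likelihood, TMM, filterByExpr, all 6 libraries, condition only), with DESeq2 1.42.0, limma 3.58.1 and the alternatives named at the end; the scripts were tested on simulated data. Hosts, boxes and coordinates (1-based) came from GENCODE 44 and the hg38 sequence. The members and lists were chosen with earlier results of these data known. RNAs named with values were the 10 most-read, every one called, the 3 highest and 3 lowest of those with at least 200 reads in each measure, and those just inside and outside 200 reads; others are said to be named after their values or serve as examples of an end position.

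Same-numbered libraries deviated together over all rows (r = 0.907, 0.258 and 0.807). So did TOE1-present replicate 3 with TOE1-depleted replicate 2 (0.811) and TOE1-present replicate 2 with TOE1-depleted replicate 3 (0.275). The other differently numbered pairs had r of −0.886 to −0.292. With the RMRP, 7SK and U2 rows left out, r of the same-numbered pairs was 0.0077, −0.019 and 0.146, and the labels do not say what a number shares. The fit with the number as a block is therefore given as an alternative.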

Additional observations from a re-analysis of the deposited data

How the results depend on the processing

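Of the 45 H/ACA snoRNAs tested for abundance, 3 were called. The number was 18 on library totals alone, 1 without the low-count filter, and 0 to 1 when 1 library was left out. Leaving out 7SL as well as RMRP, 7SK and U2, added after seeing the data, gave 1. The adaptor fit and the AG10 libraries rest on 1 TOE1-depleted library, so no calls are counted for them. With the replicate block 4 were called, and over all RNAs 18 in place of 8. Changes of sign were found in 12 named snoRNAs, none of them called. On library totals the log2 changes were 0.44 (SNORA7A), 0.54 (SNORA71D), 0.34 (SNORA78), 0.45 (SNORA71A), 0.34 (SNORA7B), 0.27 (SNORA71C) and 0.090 (SNORA52). With the adaptor as a term they were 0.057 (SNORA71D) and −0.038 (SNORA80B), and within AG10 0.034 (SNORA71D), −0.013 (SNORA68) and −0.067 (SNORA80B). DESeq2 gave −0.026 (SNORA68), −0.0029 (SNORA48) and −0.012 (SNORA80B); no filter gave −0.029, −0.0019 and −0.011 for these 3. Without RMRP, 7SK and U2 they were −0.031, −0.0038 and −0.017, and without 7SL too −0.071, −0.048 and −0.060, with −0.020 for SNORA65. Leaving out 1 library gave ranges of −0.14 to 0.072 (SNORA71D), −0.22 to 0.20 (SNORA68), −0.090 to 0.15 (SNORA48), −0.079 to 0.18 (SNORA65), −0.084 to 0.087 (SNORA80B) and −0.094 to 0.26 (SNORA50C). The causes were not tested. For the templated end limma's moderated variance called 1, SNORA53, and for the total end the pooled-read p called 2. A tails of 2 or more and of 3 or more gave 1 call each. The median differences of the templated end, the total end and the A1+ share were below 0 over all 63 and over those with at least 200 reads. The share of reads on H/ACA snoRNAs stayed 2.98 to 5.21 points higher when 1 library was left out. The end lay 3 nt past the last ACA in 41 of 63, in 42 with ATA where ACA was lacking, and 3 nt past any ACA in 44.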
